A study of Mus musculus with 20 samples.

Results

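The comparison described here set mouse embryonic fibroblasts kept for 12 h in AICAR against the same cells before the compound was added. Its members were the 3 arrays titled for 12 h of AICAR and the 3 titled for the untreated control at 0 h, so 6 of the 20 arrays of the series, and every probe set that names a single gene. That gave 28898 of 45141 probe sets and 17097 genes, of which 12944 had signal enough to be tested. All 6 samples came from 1 kind of cultured cell, SV40-immortalized fibroblasts in which both catalytic subunits of AMPK, Ampkα1 and Ampkα2, had been knocked out. The controls carried the knockout too, and no cell with intact AMPK entered the comparison. The treated cells received 1 mM AICAR for 12 h, and the controls received none and were collected at 0 h, so time with AICAR and time in the dish cannot be told apart. Further arrays from 8 h (n = 2) and 24 h (n = 3) of the same treatment were used to place the 12 h values in time. The labels do not say whether the arrays of a group came from separate cultures. The p-values measure only the spread between arrays within groups, pooled over all 20 arrays of the series, and that spread may be technical.

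AMPK is a kinase that responds to a falling energy charge: AMP and ADP bind its γ subunit, and the catalytic α subunit then phosphorylates enzymes and regulators that shift the cell from growth towards energy production. AICAR is a nucleoside that cells take up through adenosine transporters and that adenosine kinase converts to ZMP, an analogue of AMP and an intermediate of purine synthesis. It is widely used to switch on AMPK, and cells without the catalytic subunits serve to find responses to AICAR that do not pass through them. The question of the comparison was therefore which transcripts differed after 12 h when those subunits were missing.

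Signals were log2 values from the authors' table, and for each gene the probe set with the highest mean was used. A gene was called where its adjusted p fell under 0.05 in limma after Benjamini-Hochberg adjustment over all 12944 tested genes. Differences are 12 h minus 0 h on the log2 scale, given ± the standard error of the fit (n = 3 arrays a group). Of the genes tested, 3068 were called (23.7%), 1918 higher at 12 h (14.8%) and 1150 lower (8.88%). Most of these differences were small. The median size among called genes was 0.42, and 117 genes (0.904%) were called and at least 2-fold apart, 60 higher and 57 lower. Over all genes the median difference was 0.00056, with the lowest decile below -0.26 and the highest decile above 0.37. The 3 arrays of each group did not overlap for 4727 genes (36.5%), and 2950 of those were called. Deviations from the group means correlated between arrays of the same number, but weakly for number 1 (0.137). The 12 h array numbered 1 correlated more with the control numbered 2 (0.274). With the replicate number as a block in the fit 3945 genes were called, among them all 3068. With that replicate block 17 more of the genes named below were called, and their p under it is given beside the difference from 0 h. No gene named below lost its call with it. The count of higher genes rested in part on single arrays: without the control array numbered 3 it was 1237, and without the 12 h array numbered 1 it was 1265.

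The arrays were alike in their overall distribution, with medians of 5.18 to 5.24 in the controls and 5.17 to 5.26 after 12 h. The array numbered 3 of each group had a higher median and a narrower spread than the others. List counts without that pair are given for some lists only, among them the ERK and immediate early lists. Small counts elsewhere could change too. In the NRF2 and the BCL2 list, 2 genes were higher, and 1 in each without that pair. Signal at the 3′ end of the actin control minus that at its 5′ end was 0.383 to 0.458 in the controls and 0.436 to 0.542 at 12 h, and its part in the results was not tested. The fibroblast marker list had 13 of 16 members above the background level of 5.08, the 95th percentile of the nonspecific control probe sets. Its mean signal lay between 8.20 and 8.26 in the controls and between 8.11 and 8.21 at 12 h. Endothelial markers averaged 4.70 to 4.81 and 4.69 to 4.83, below background, and macrophage markers 4.85 to 4.90 and 4.91 to 5.07. Epithelial markers averaged 5.58 to 5.63 and 5.59 to 5.77. Skeletal muscle markers, 7 of 8 above background, averaged 5.73 to 5.82 and 5.67 to 5.79. Means were lower at 12 h without overlap for adipocyte markers (5.49 to 5.54 and 5.31 to 5.38) and pluripotency markers (5.18 to 5.25 and 4.96 to 4.99). Of the other cell types' markers, Krt19, Cd68, Csf1r, Lpl and Sox2 were called. Krt19, an epithelial keratin, was 0.32 ± 0.069 higher, Cd68 was 0.61 ± 0.12 higher from a control mean of 4.77 that lies under the background level, and Csf1r differed by -0.25 ± 0.089. Sox2, a pluripotency factor with the high control mean of 8.92, differed by -1.07 ± 0.14, and Lpl by -0.70 ± 0.094. In bulk cultures such as these, fewer cells of a type and less RNA per cell cannot be told apart.

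The genes of the deleted subunits were read first. Prkaa1, which encodes Ampkα1, read 8.23, 8.21 and 8.11 in the controls and 8.05, 8.22 and 7.92 at 12 h, well above background, and its difference of -0.12 ± 0.084 was not called (adjusted p = 0.361). Prkaa2, which encodes Ampkα2, read 5.59, 5.54 and 5.76 in the controls and 6.98, 5.99 and 5.77 at 12 h. The array numbered 1 at 12 h alone stood well above the rest, and the call on its difference of 0.61 ± 0.20 (adjusted p = 0.0359) was lost without that array, where the difference was 0.25. Where the probe sets lie relative to the deleted exons was a detail not given in the sources used here, and neither reading checks the knockout. Among the AMPK subunits and upstream kinases, 5 of 13 tested genes were called higher and 2 lower. The count of higher ones was 1 without the control numbered 3, 2 without the 12 h array numbered 1, and 3 without the control numbered 2, without the 12 h array numbered 2, without both arrays numbered 3 or with median centring. Prkag2, a γ subunit, was 0.65 ± 0.14 higher and Prkab1, a β subunit, was lower (-0.43 ± 0.092), while Stk11, the upstream kinase LKB1, differed by -0.13 ± 0.086 and was not called. Of the AMPK-related kinases, 3 of 10 were higher, Sik3 (0.31 ± 0.068), Sik2 (0.50 ± 0.13) and Snrk (0.46 ± 0.14), and Nuak1 was lower (-0.50 ± 0.17). In that list 1 was higher without the control numbered 3 or without the 12 h array numbered 1.

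**Figure D1:**
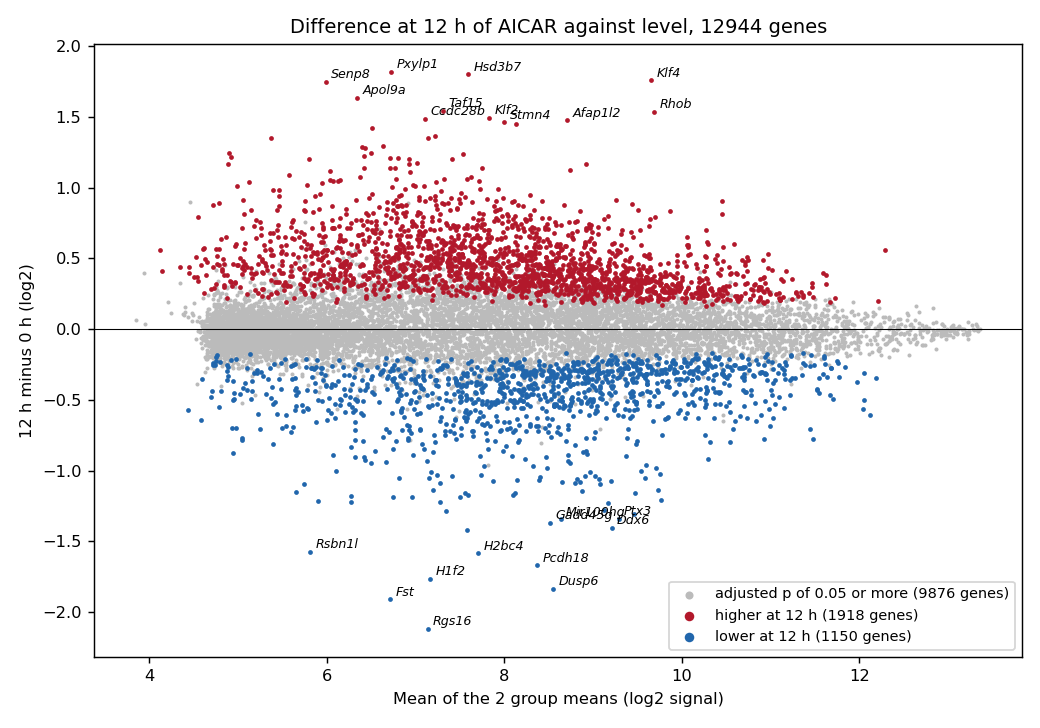
Difference between 12 h of AICAR and 0 h (log2, y axis) against the mean of both group means (log2 signal, x axis) for 12944 genes. Each point is a gene, red where called higher (1918), blue where called lower (1150) and grey otherwise, and the genes with the largest differences are named, from Pxylp1 (1.82) at the top to Rgs16 (-2.12) at the bottom.

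The 15 largest rises covered genes of several kinds. Pxylp1, a phosphatase that acts on the xylose of proteoglycan linkers, read 6.07, 6.06 and 5.31 in the controls and 7.99, 7.84 and 7.06 at 12 h, a difference of 1.82 ± 0.29 (adjusted p = 0.000186). Its array numbered 3 was the lowest in each group, so the step was similar in size within each number. Hsd3b7, an enzyme of bile acid synthesis from cholesterol, read 6.74, 6.60 and 6.74 and 8.67, 8.38 and 8.43, a 3.48-fold rise (difference 1.80 ± 0.10, adjusted p = 3.08e-09) with tight groups far apart. Much of it came late, since Hsd3b7 had stood 0.87 above the controls at 8 h. Senp8, a protease that matures and removes NEDD8, Afap1l2, an actin-filament and Src adaptor, and Stmn4, a stathmin that binds tubulin, rose by 1.75, 1.47 and 1.46. Taf15, a member of the FET family of RNA-binding proteins, rose by 1.54 ± 0.28 from controls of 6.68, 6.80 and 6.12 to 8.26, 8.26 and 7.71. The other genes among the 15 largest rises were Ccdc28b, Mettl7a1, Abhd14b, Mfsd9 and Zbtb4, with differences from 1.35 to 1.48, besides those described with their families below. Ccdc28b rested on a probe set of the kind that can cross-hybridise, and without such probe sets its difference was -0.10.

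The Krüppel-like factors Klf4 and Klf2 and the small GTPase Rhob were among the strongest rises. Klf2 and Klf4 are zinc-finger transcription factors that restrain proliferation in many cells and that MEF2 factors switch on, and Rhob encodes a short-lived endosomal GTPase. Klf4 read 8.84, 8.87 and 8.62 in the controls and 10.58, 10.67 and 10.35 at 12 h, so every treated array lay above every control by more than a unit. The difference was 1.76 ± 0.10, a 3.38-fold rise (adjusted p = 3.08e-09). Klf2 read 7.25, 7.07 and 6.93 in the controls and 8.62, 8.73 and 8.38 at 12 h (difference 1.49 ± 0.15, adjusted p = 2.25e-06). Rhob read 8.91, 9.02 and 8.82 in the controls and 10.68, 10.35 and 10.32 at 12 h (difference 1.54 ± 0.12, adjusted p = 2.21e-07). Most other Krüppel-like factors were not called. Of 11 tested Krüppel-like factors 2 were higher and 1 lower, Klf16 (-0.38 ± 0.082), and the list's median was -0.02, while Klf5 (-0.32 ± 0.12, adjusted p = 0.0261 with the replicate block), Klf10 (-0.29 ± 0.12, adjusted p = 0.0344 with the replicate block) and Klf11 (0.18 ± 0.082) were not called. With the replicate block, the family's count of lower genes became 3. At 8 h and 24 h the differences from 0 h were 1.53 and 1.06 for Klf4, 1.31 and 0.54 for Klf2, and 1.39 and 1.51 for Rhob.

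**Figure D2:**
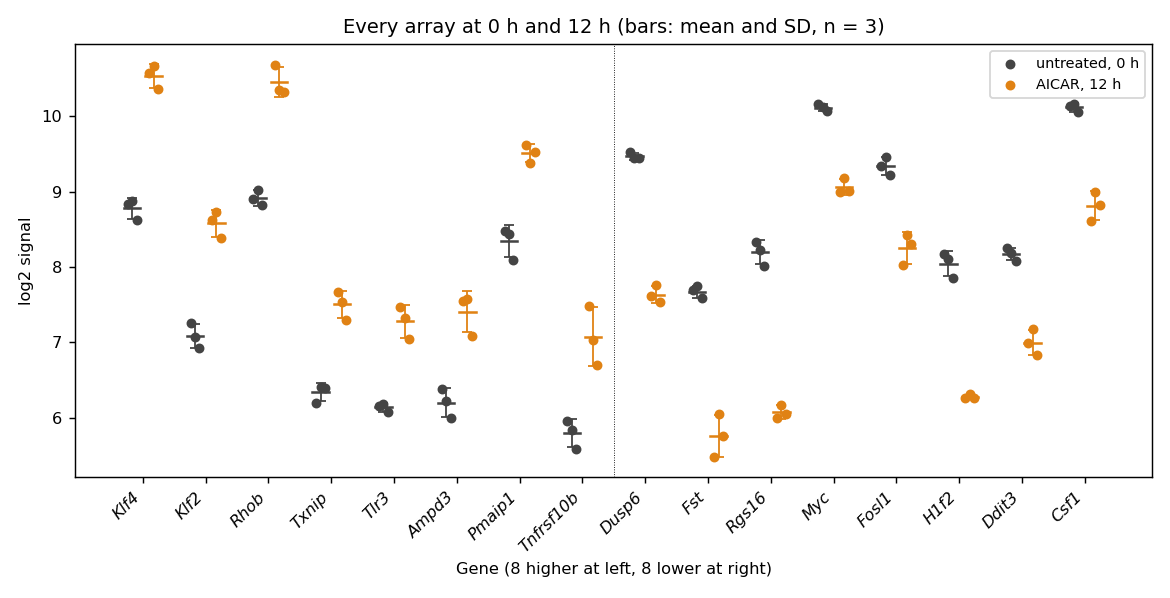
Log2 signal (y axis) of 16 genes (x axis) in each of the 3 control arrays (dark points) and the 3 arrays at 12 h (orange points), with the group mean and SD. For each of these genes the groups do not overlap, with Klf4 and the others at left higher at 12 h and Dusp6 (-1.84) and the others at right lower.

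Transcripts that report on ERK signalling fell together. ERK is the last kinase of the growth-factor cascade from RAS through RAF and MEK, and its activity induces phosphatases and adaptors that restrain the same cascade. Of 16 tested genes of ERK feedback and output, 12 were lower at 12 h and none higher, against 8.88% of all genes lower, and the list's median was -0.66. With the pair of arrays numbered 3 left out, 11 were lower. Dusp6, the cytoplasmic phosphatase that dephosphorylates ERK, read 9.52, 9.45 and 9.44 in the controls and 7.61, 7.76 and 7.53 at 12 h, a 3.57-fold fall (difference -1.84 ± 0.16, adjusted p = 6.82e-07). No treated array came within a unit of a control. Of the ETS factors, Etv5 fell by 0.97, from 8.47, 8.25 and 8.05 to 7.27, 7.50 and 7.11. Etv1 (-0.18 ± 0.07, adjusted p = 0.0485 with the replicate block), at signals near background, was not called. The feedback inhibitors split: Spry4 (-1.10 ± 0.18) and Spred3 (-0.999 ± 0.16) were lower, whereas Spred1 (-0.057 ± 0.10) was not called, nor was the phosphatase Dusp7 (0.12 ± 0.17). The fall of Spry4 was carried by the brightest of its 4 probe sets, and the mean of all 4 gave -0.31. The receptor kinase Epha2 read 8.70, 8.86 and 8.59 and 7.98, 8.13 and 7.99 (-0.68 ± 0.078, adjusted p = 9.78e-06). Errfi1, an inhibitor of the EGF receptor, fell by 0.57. Hbegf, a ligand of that receptor, read 9.62, 9.80 and 9.93 in the controls and 8.89, 8.84 and 7.93 at 12 h (difference -1.23 ± 0.36, adjusted p = 0.0187). The array numbered 3 at 12 h was far lower than the others there, and without the pair numbered 3 the difference was -0.84 and was not called. Rgs16, which speeds the shut-off of G-protein signalling, was the largest fall of all. It read 8.33, 8.23 and 8.02 in the controls and 6.004, 6.17 and 6.05 at 12 h, a 4.34-fold fall (difference -2.12 ± 0.20, adjusted p = 1.26e-06), and among 13 tested RGS genes it was the lone call downwards, with Rgs19 higher (0.70 ± 0.093).

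Immediate early genes, the transcription factors induced within minutes of growth-factor stimulation, showed the same direction with exceptions. Of 21 tested, 12 were lower and 2 higher, with a median of -0.39, and 9 were lower without the arrays numbered 3. Myc, which drives growth and ribosome production, read 10.16, 10.12 and 10.06 in the controls and 8.99, 9.18 and 9.01 at 12 h (-1.05 ± 0.10, adjusted p = 2.43e-06). Fosl1, the ERK-dependent AP-1 subunit FRA1, read 9.34, 9.46 and 9.22 and 8.02, 8.43 and 8.30 (-1.09 ± 0.11, adjusted p = 2.96e-06). Both genes stood at about the 2-fold mark with groups that did not overlap. Ier2 fell by 1.04, Fosl2 by 0.98 and the small MAF factor Maff by 0.68. Against these, Jund, the AP-1 subunit most linked to quiescent cells, rose from 10.07, 10.21 and 10.25 to 10.90, 10.75 and 10.62 (0.58 ± 0.092, adjusted p = 0.000185). Nr4a1 (0.15 ± 0.073), Btg2 (0.31 ± 0.16) and Dusp1 (0.20 ± 0.13) were not called, although their arrays did not overlap. At 24 h the list had returned in part, with 7 members called higher and 2 lower than at 12 h.

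Of the YAP and TAZ targets and of the TGF-β family's targets and antagonists, more genes were called lower than higher. YAP and TAZ are coactivators that LATS kinases of the Hippo pathway keep out of the nucleus, and Ccn2, Ankrd1 and Amotl2 are among their best-known targets. Of 20 tested targets 10 were lower and 1 higher, with a median of -0.27. Ccn2, a matricellular growth factor, read 11.87, 11.90 and 11.82 in the controls and 10.90, 11.18 and 11.19 at 12 h (-0.77 ± 0.10, adjusted p = 1.96e-05). Ankrd1 fell by 0.61 and Amotl2 by 0.62, and Ccn1 (-0.25 ± 0.10) was not called. Of the Hippo components 4 of 21 were lower (7 with quantile normalization) and 1 higher. The kinase Lats1 read 9.68, 9.69 and 9.67 and 9.84, 9.93 and 9.90 (0.21 ± 0.073, adjusted p = 0.0436), a call that 8 of the alternative settings did not keep. Its paralogue Lats2 read 8.20, 8.14 and 8.29 and 7.83, 7.64 and 7.33 (-0.61 ± 0.14, adjusted p = 0.00404), but the mean of its 5 probe sets gave -0.047 and was not called, nor was the difference of -0.44 without the arrays numbered 3. Of 17 genes of the TGF-β, BMP and activin group 8 were lower and 1 higher, with a median of -0.36. Fst, the secreted antagonist follistatin that binds activin, read 7.69, 7.74 and 7.58 in the controls and 5.48, 6.05 and 5.76 at 12 h, a 3.76-fold fall (difference -1.91 ± 0.13, adjusted p = 4.44e-08). The BMP targets Id1 and Id2 fell by 0.999 and 0.92, the repressor Tgif1 by 1.07 and the decoy receptor Bambi by 0.70. Tgfbi, a matrix protein induced by TGF-β, went the other way (0.89 ± 0.15, adjusted p = 0.000306), and Id3 (-0.31 ± 0.13), Inhba (-0.36 ± 0.15) and Bmp4 (-0.27 ± 0.12) were not called.

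Among genes of the contractile and matrix-producing fibroblast, more were called lower than higher, and most were not called. Of 17 smooth muscle and myofibroblast genes 7 were lower and none higher, with a median of -0.18. Acta2, smooth muscle actin and the usual marker of myofibroblasts, read 11.81, 11.82 and 11.77 and 10.91, 11.14 and 11.22 (-0.71 ± 0.076, adjusted p = 5.94e-06). Myl9, the myosin regulatory light chain, fell by 1.01, Tpm1 by 0.42 and Flna by 0.33. Myh9 (-0.34 ± 0.18) and Vcl (-0.079 ± 0.07) overlapped between the groups and were not called. Of 30 collagens and matrix genes 10 were lower and 3 higher, with a median of -0.22, and without the 12 h array numbered 1 the count was 6 lower and 2 higher. Fbln5, an elastic-fibre protein, fell by 0.73, Timp1, an inhibitor of matrix metalloproteinases, by 0.52, Bgn by 0.52 and Col5a2 by 0.45. Col3a1 (-0.41 ± 0.17, adjusted p = 0.0187 with the replicate block), Mmp2 (-0.24 ± 0.09, adjusted p = 0.0158 with the replicate block) and Dcn (-0.21 ± 0.091) were not called. Of 7 caveolins, cavins and caveola-linked genes 2 were higher, Ehd2 (0.37 ± 0.12) and Pacsin2 (0.22 ± 0.067), and 1 lower, with a median of 0.16, and neither higher call held without the control numbered 3 or without the 12 h array numbered 2. Cavin2, which shapes caveolae, fell by 0.78, and Cav1 (-0.20 ± 0.07, adjusted p = 0.0419 with the replicate block) was not called. Pcdh18, a protocadherin, read 9.25, 9.25 and 9.12 in the controls and 7.19, 7.84 and 7.58 at 12 h (-1.67 ± 0.13, adjusted p = 3.57e-07), and the mean of its 3 probe sets gave -0.85.

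**Figure D3:**
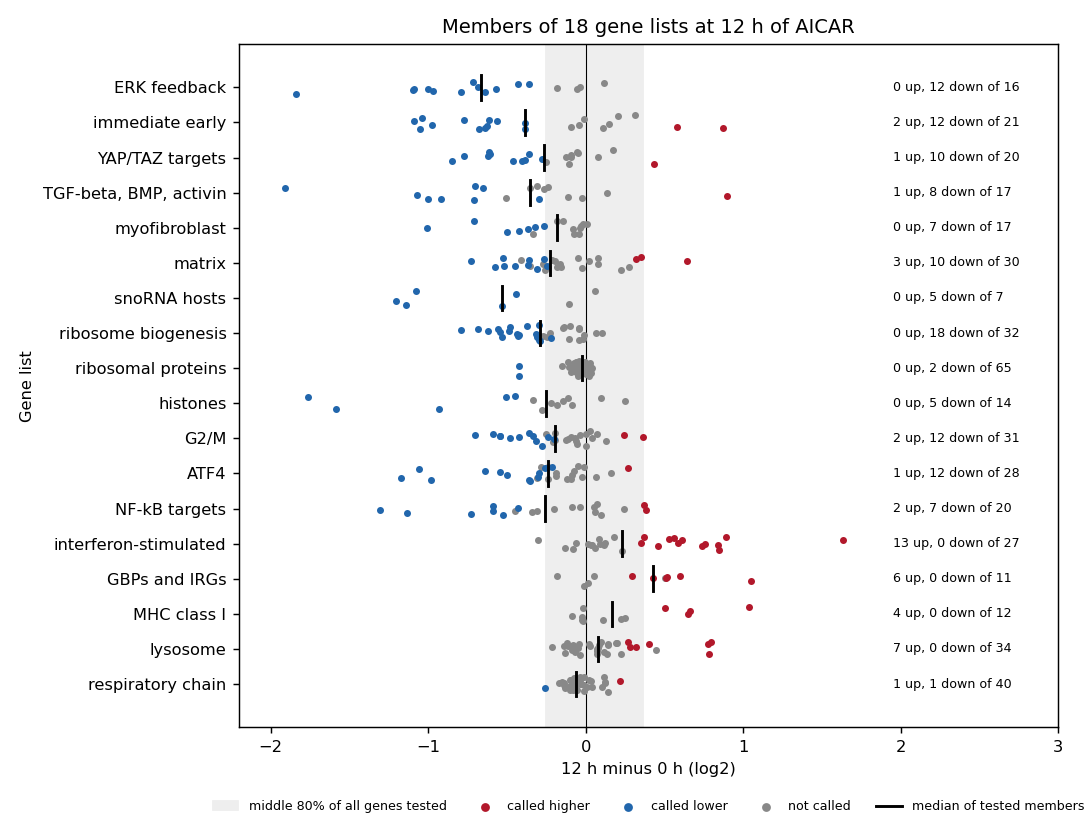
Difference between 12 h of AICAR and 0 h (log2, x axis) for the tested members of 18 gene lists (y axis), each point a gene, red where called higher, blue where called lower and grey where not called, with black bars at the medians. The ERK feedback list lies farthest to the left with a median of -0.66, the interferon-stimulated list to the right with 13 of 27 called higher, and the ribosomal proteins sit at 0; the shaded band holds the middle 80% of all genes tested.

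Among genes that build ribosomes 18 of 32 were lower, and among those that encode ribosomal proteins 2 of 65 were. Ribosome biogenesis factors process and assemble ribosomal RNA in the nucleolus, and many are targets of Myc. None of the 32 was higher, 8.88% of all genes were lower, and the list's median was -0.29. Wdr43, a subunit of the small-subunit processome, read 10.79, 10.69 and 10.66 and 9.72, 10.03 and 10.000 (-0.79 ± 0.093, adjusted p = 1.33e-05). Dkc1, the pseudouridine synthase dyskerin, fell by 0.68, Ddx21 by 0.62, Nop56 by 0.55 and Rrs1 by 0.53. The polymerase I genes Polr1a (-0.25 ± 0.10, adjusted p = 0.0187 with the replicate block) and Rrn3 (-0.14 ± 0.066) were not called. Of 65 cytosolic ribosomal protein genes 2 were lower and none higher, Rpl14 (-0.42 ± 0.10) and Rps15a (-0.42 ± 0.14), and the list's median was -0.02, and with the mean of all probe sets 10 were lower. Of 40 subunits of the respiratory chain and ATP synthase, 1 was higher, Ndufs7 (0.22 ± 0.066), and 1 lower, Ndufa2 (-0.26 ± 0.072). The host genes of small nucleolar RNAs carry in their introns the RNAs that guide ribosomal RNA modification. Of 7 tested, 5 were lower and none higher, with a median of -0.53. Snhg5 read 10.45, 10.34 and 10.31 in the controls and 8.96, 9.31 and 9.23 at 12 h (-1.20 ± 0.14), Gas5 fell by 1.14 and Taf1d by 1.08. Zfas1 (-0.53 ± 0.091) and Snhg6 (-0.44 ± 0.063) were also lower, and Snhg8 (-0.11 ± 0.069) was not called.

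Histone and cell-cycle transcripts fell in part. Of 14 tested histone genes 5 were lower and none higher, with a median of -0.25. The linker histone H1f2 read 8.17, 8.10 and 7.86 in the controls and 6.26, 6.31 and 6.26 at 12 h, a 3.4-fold fall (difference -1.76 ± 0.10, adjusted p = 3.08e-09), and the core histone H2bc4 fell by 1.58. H2bc22 (-0.93 ± 0.10) and H2ax (-0.45 ± 0.10) were also lower. The core histone gene H3c7 was not called, nor were H3f3a (-0.18 ± 0.073) and H2az2 (-0.15 ± 0.066). Of 31 genes of G2/M and mitosis 12 were lower and 2 higher, a count of 6 lower without the arrays numbered 3. Aurka, the mitotic kinase Aurora A, read 9.85, 9.69 and 9.68 and 8.89, 9.07 and 9.15 (-0.71 ± 0.086, adjusted p = 1.71e-05). Cdc20 fell by 0.55, Cenpa by 0.54 and Plk1 by 0.48, whereas Bub1 was higher (0.36 ± 0.07) and Cdk1 (-0.21 ± 0.08, adjusted p = 0.0483 with the replicate block) and Birc5 (-0.19 ± 0.07, adjusted p = 0.0299 with the replicate block) were not called. The DNA replication and S-phase genes split, with 9 of 35 lower (5 without the control numbered 2) and 4 higher and a median of 0.04: Tk1 fell by 0.54 and Cdc6 by 0.39, while the clamp-loader subunits Rfc4 (0.47 ± 0.06) and Rfc5 (0.35 ± 0.062) rose. Of the G1 regulators 5 of 24 were lower, among them Ccnd1 (-0.43 ± 0.11) and Cdk4 (-0.35 ± 0.083), and Rbl1 was higher (0.46 ± 0.089). That count was 2 without the control numbered 2 or without both arrays numbered 3, and 3 without the control numbered 1, the 12 h arrays numbered 1 or 3, or with median centring.

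Among the p53 targets the death genes Pmaip1 and Tnfrsf10b rose, and the arrest gene Cdkn1a was not called. SV40 large T antigen, the usual immortalizing protein of that virus, binds and blocks p53. Of 23 tested targets 5 were higher (21.7%, against 14.8% of all genes) and 3 lower (13%, against 8.88%). Without the 12 h array numbered 1 or both arrays numbered 3, 3 were higher. Pmaip1, the BH3-only death protein NOXA, read 8.48, 8.44 and 8.10 in the controls and 9.62, 9.39 and 9.52 at 12 h (1.17 ± 0.10, adjusted p = 3.81e-07). Tnfrsf10b, a death receptor for TRAIL, read 5.96, 5.84 and 5.59 and 7.48, 7.03 and 6.71 (1.28 ± 0.17, adjusted p = 4.35e-05). Cdkn1a, the cyclin-dependent kinase inhibitor p21, read 8.93, 9.01 and 8.87 and 9.08, 9.21 and 9.21 (0.23 ± 0.10, adjusted p = 0.0951, or 0.0415 with the replicate block). Its groups did not overlap, but the step was small. Trp53inp1 (0.71 ± 0.11) and Mdm2 (0.30 ± 0.08) were higher, and Gadd45a (-0.85 ± 0.14) was lower. In the BCL2 family 2 of 13 were higher and 4 lower (2 with the mean of all probe sets): the protective members Mcl1 (-0.48 ± 0.079), Bcl2 (-0.71 ± 0.14) and Bcl2l1 (-0.33 ± 0.075) and the pro-death member Bok (-0.36 ± 0.082) were lower, Bad was higher (0.32 ± 0.086), and Bbc3 (0.10 ± 0.083) and Bcl2l11 (-0.19 ± 0.19) were not called. The stress-inducible Gadd45g, which is in neither list, fell by 1.37.

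Part of the interferon system was higher at 12 h. Type I interferon acts through JAK kinases and the transcription factors they activate, which bind the interferon-stimulated response element in the promoters of antiviral genes. To show the element, stretches of 100 bases upstream of the start of 7 members that were called higher follow, 5′ to 3′ on the gene's strand, from RefSeq on GRCm38.p6. Capitals mark matches to GAAANNGAAA on either strand, merged where matches overlap.
Ifit1, chr19:34640749-34640848, plus strand: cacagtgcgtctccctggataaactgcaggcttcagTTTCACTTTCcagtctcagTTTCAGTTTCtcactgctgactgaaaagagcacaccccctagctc
Apol9a, chr15:77411082-77411181, minus strand: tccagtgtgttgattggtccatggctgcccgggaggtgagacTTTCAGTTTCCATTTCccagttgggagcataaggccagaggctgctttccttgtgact
Gbp2, chr3:142620559-142620658, plus strand: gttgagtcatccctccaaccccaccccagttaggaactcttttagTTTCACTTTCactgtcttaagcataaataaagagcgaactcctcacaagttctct
Gbp3, chr3:142559944-142560043, plus strand: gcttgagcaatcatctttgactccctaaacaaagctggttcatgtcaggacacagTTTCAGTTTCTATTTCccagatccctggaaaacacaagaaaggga
Igtp, chr11:58199456-58199555, plus strand: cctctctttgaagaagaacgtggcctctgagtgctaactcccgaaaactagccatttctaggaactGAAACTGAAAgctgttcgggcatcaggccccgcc
Irgm1, chr11:48871421-48871520, minus strand: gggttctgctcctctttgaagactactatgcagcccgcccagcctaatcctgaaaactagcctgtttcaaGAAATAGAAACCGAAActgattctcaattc
Irgm2, chr11:58214868-58214967, plus strand: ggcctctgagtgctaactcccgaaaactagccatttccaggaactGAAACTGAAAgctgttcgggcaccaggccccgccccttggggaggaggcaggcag
In windows of 300 bases, from 250 before to 50 after the start, this motif was found in 10 of 20 interferon-stimulated genes that were tested and have a promoter in the table, and in 7 of 8 guanylate-binding proteins and immunity-related GTPases. Among all 27025 genes with a promoter the share was 3.99%, and among those tested 3.34%. Among the interferon-stimulated genes called higher at 12 h it was found in 3 of 9, and among the called GTPases in 5 of 6. For this and the other motifs below, a gene counted where any of its promoters in the table held a match. Gbp3 has another start in the table, and the 250 bases before that start held no match. A match is a stretch of letters and not a measured binding site.

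Of 27 tested interferon-stimulated genes 13 were higher and none lower at 12 h, against 14.8% of all genes higher, with a median of 0.23. Apol9a, an apolipoprotein L gene, read 5.75, 5.58 and 5.23 in the controls and 7.43, 7.33 and 6.71 at 12 h (1.63 ± 0.18, adjusted p = 6.63e-06). Ifit1, which binds foreign RNA caps, read 4.62, 4.72 and 4.85 in the controls, below background, and 5.41, 5.66 and 5.64 at 12 h (0.84 ± 0.13, adjusted p = 0.000179). At 8 h Ifit1 had stood 0.0088 from the controls, and between 8 h and 12 h it rose (difference 0.83, adjusted p = 0.0128). Rtp4 (0.75 ± 0.10), Parp9 (0.61 ± 0.076), its partner ubiquitin ligase Dtx3l (0.89 ± 0.13) and Xaf1 (0.85 ± 0.13) were also higher. Others were not called, among them Rsad2 (0.23 ± 0.17), Ifitm3 (-0.13 ± 0.10) and Eif2ak2 (-0.30 ± 0.29). Of 11 guanylate-binding proteins and immunity-related GTPases, which attack the vacuoles of intracellular pathogens, 6 were higher and none lower, with a median of 0.42, and 3 were higher without the 12 h array numbered 1 or that numbered 2. Gbp2 read 5.84, 5.57 and 5.39 and 6.86, 6.79 and 6.29 (1.05 ± 0.17, adjusted p = 0.000208). The calls of Igtp (0.42 ± 0.12), Irgm1 (0.29 ± 0.089) and Gbp3 (0.52 ± 0.17) lay nearer the threshold, with adjusted p from 0.0166 to 0.0319, and the arrays of Gbp3 overlapped.

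The RNA sensors Tlr3, Ifih1 and Ddx58 rose beside these genes, whereas Eif2ak2, Oas1g and Oas3 of the interferon-stimulated list were not called. Of 27 genes for sensors and interferon signalling 7 were higher and 1 lower, with a median of 0.13. Tlr3, the endosomal receptor for double-stranded RNA, read 6.16, 6.19 and 6.08 in the controls and 7.47, 7.32 and 7.04 at 12 h (1.14 ± 0.13, adjusted p = 1.24e-05). Ifih1, the cytosolic RNA sensor MDA5, read 5.31, 5.43 and 5.16 and 6.26, 6.38 and 5.98 (0.90 ± 0.11, adjusted p = 1.46e-05), and Ddx58, the sensor RIG-I, rose by 0.54. The DNA sensor Cgas was lower (-0.41 ± 0.08, adjusted p = 0.00107). Downstream, Irf3 (0.42 ± 0.079) and the receptor chain Ifnar1 (0.55 ± 0.13) were higher, and Stat2 (0.33 ± 0.12, adjusted p = 0.0455 with the replicate block) and Socs3 (-0.29 ± 0.11) were not called. In antigen processing for MHC class I 4 of 12 were higher and none lower. Nlrc5, the transactivator of class I genes, rose from 5.52, 5.57 and 5.21 to 6.62, 6.51 and 6.28 (1.03 ± 0.16), with the immunoproteasome subunits Psmb8 (0.65 ± 0.11) and Psmb9 (0.51 ± 0.13) and the peptide trimmer Erap1 (0.66 ± 0.10). At 24 h these groups stood far above their 12 h levels: 25 of the 27 interferon-stimulated genes, 9 of the 11 GTPases and all 12 class I genes were called higher than at 12 h. Beside the median of 0.23 at 12 h, the interferon-stimulated list had one of 0.04 at 8 h and of 1.89 at 24 h. The filter took each gene's highest group mean, 24 h included. Faint members may thus have been tested because of their 24 h signal, which can raise the shares and median at 24 h. The lowest control mean was 3.94 in the interferon-stimulated list and 4.51 among the GTPases. Of their members on the array, 27 of 29 and 11 of 12 were tested. All 12 class I genes on the array were tested, each with a control mean above background.

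**Figure D4:**
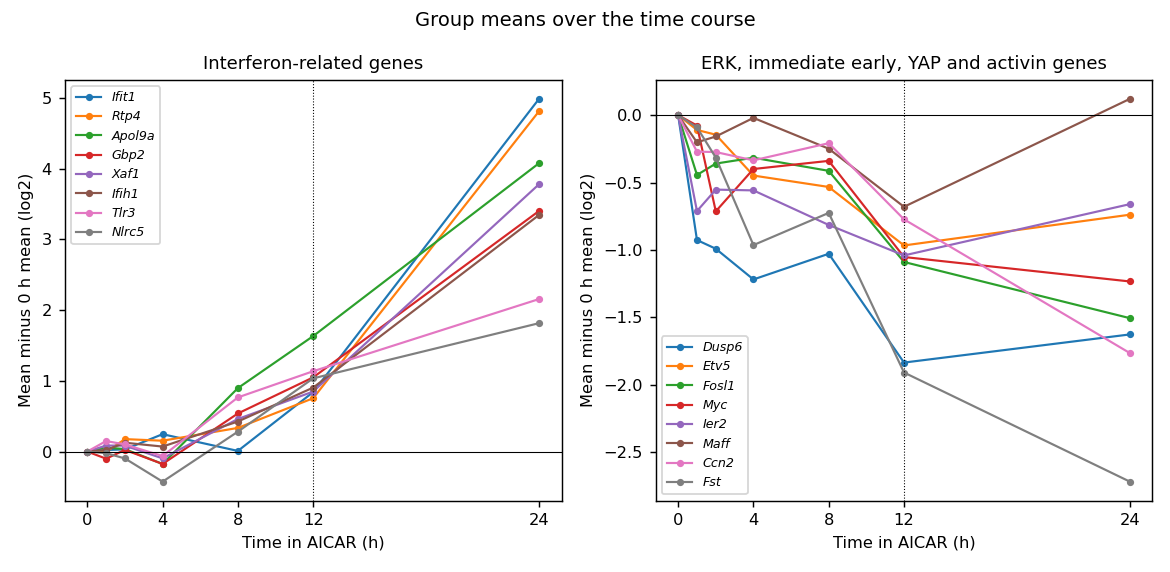
Mean log2 difference from the 0 h controls (y axis) against time in AICAR (h, x axis), for 8 interferon-related genes at left and 8 genes of ERK, immediate early, YAP and activin lists at right, each line a gene and the dotted line 12 h. The interferon-related genes lie between 0.75 (Rtp4) and 1.63 (Apol9a) at 12 h and climb to 4.99 (Ifit1) at 24 h; Maff is lowest at 12 h (-0.68) and back above 0 at 24 h (0.12).

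The targets of NF-κB, the other main inflammatory factor, were lower more often than higher. Of 20 tested, 7 were lower and 2 higher, with a median of -0.26, and neither of the higher calls held without the arrays numbered 3. Csf1, the growth factor of macrophages, read 10.13, 10.16 and 10.05 in the controls and 8.61, 9.001 and 8.83 at 12 h (-1.30 ± 0.12, adjusted p = 7.74e-07), and the mean of its 4 probe sets gave -0.40. Ptgs2, the inducible cyclooxygenase COX-2, fell from 10.18, 10.26 and 10.44 to 9.07, 9.32 and 9.09 (-1.14 ± 0.11). The chemokine Cxcl12 fell by 0.73 and the pathway's own inhibitors Nfkbia and Tnfaip3 by 0.59 and 0.59. The secreted pattern receptor Ptx3 fell by 1.34. Ccl5, which responds to interferon as well, was not called (0.24 ± 0.11, adjusted p = 0.0467 with the replicate block).

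In the amino-acid stress response and in one-carbon metabolism a part of the genes was lower, and most were not called. ATF4 is translated when eIF2α is phosphorylated and induces amino-acid transporters, synthetases and the factor CHOP. Of 28 tested genes of that response 12 were lower and 1 higher, with a median of -0.24. Ddit3, which encodes CHOP, read 8.25, 8.18 and 8.09 in the controls and 6.99, 7.18 and 6.83 at 12 h (-1.17 ± 0.16, adjusted p = 3.48e-05). Slc7a1, the arginine and lysine transporter, read 10.15, 10.25 and 10.20 and 9.08, 9.27 and 9.30 (-0.98 ± 0.08, adjusted p = 3.61e-07), with both groups tight. Atf5 (-0.55 ± 0.08), Slc6a9 (-0.50 ± 0.077) and the phosphatase regulator Ppp1r15a (-0.64 ± 0.12) were lower too, and Slc3a2 (-0.24 ± 0.09, adjusted p = 0.0272 with the replicate block) and Slc7a5 (-0.29 ± 0.11, adjusted p = 0.0155 with the replicate block) were not called. The C/EBP-ATF element, searched as TGATGNAA on either strand, was found in the 300-base promoter window of 8 of 25 tested members, of 2 of 11 called lower, and of 4.51% of all genes, or 2.91% of those tested. Of 18 one-carbon (folate and serine) genes 6 were lower and none higher, and 3 were lower with median centring, without the control numbered 1 or without the 12 h array numbered 3. Mtap, which salvages methylthioadenosine, fell by 0.70 and the folate carrier Slc19a1 by 0.43, and Phgdh (-0.31 ± 0.12, adjusted p = 0.0466 with the replicate block) and Psat1 (-0.19 ± 0.081) were not called. Of 17 amino-acid transporters 4 were lower and 3 higher, the higher ones being Slc36a1 (0.46 ± 0.11), Slc7a3 (0.35 ± 0.078) and Slc38a7 (0.27 ± 0.078). The count of lower ones was 2 without the control numbered 1, the 12 h array numbered 1 or 3, or both arrays numbered 3, and 7 with the replicate block. The lists of this paragraph share genes, so their counts are not separate. Slc7a1 and Slc6a9 counted as lower in both the stress-response and the transporter list. Some of the lower one-carbon genes are members of the stress-response list too.

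Genes of the nucleotide enzymes nearest to AICAR were mostly not called. Adk, adenosine kinase, which makes ZMP from AICAR, read 11.55, 11.55 and 11.54 in the controls and 11.35, 11.37 and 11.35 at 12 h (-0.19 ± 0.062, adjusted p = 0.0375). That shift was small and even across arrays, and 10 of the alternative settings did not keep the call. Of 17 genes of purine synthesis and salvage 3 were higher and 3 lower. Ampd3, an AMP deaminase, was the exception in size, from 6.38, 6.23 and 5.996 in the controls to 7.56, 7.58 and 7.09 at 12 h, a 2.31-fold rise (difference 1.21 ± 0.16, adjusted p = 3.09e-05). Its paralogue Ampd2 was lower (-0.32 ± 0.06). Gart was higher (0.38 ± 0.065) and Prps1 lower (-0.36 ± 0.074), and Adsl (-0.10 ± 0.06) and Pfas (-0.18 ± 0.12) were not called. Of 20 pyrimidine and deoxynucleotide genes 5 were lower and 2 higher, with Ctps (-0.43 ± 0.061) and Uck2 (-0.45 ± 0.083) lower and Dck (0.33 ± 0.088) higher.

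In sugar and lipid metabolism, genes were called in both directions, apart from the hexosamine list, where none was lower. Txnip, which blocks glucose uptake and responds to the sugar-sensing factor MondoA, read 6.20, 6.41 and 6.40 in the controls and 7.67, 7.54 and 7.30 at 12 h (1.17 ± 0.13, adjusted p = 9.56e-06). Its relative Arrdc4, a target of the same factor, rose by 0.77, and no other of the 8 tested arrestin-domain genes was called. In the list of glycolysis, glucose uptake and hypoxia response 7 of 26 were higher (4 without the 12 h array numbered 1) and 3 lower, with a median of -0.04. Slc2a1, the glucose transporter GLUT1 (0.36 ± 0.069), Pfkp (0.40 ± 0.081) and Pdk1 (0.68 ± 0.17) were higher, the vasodilator peptide gene Adm fell by 1.15 and Pfkfb3 by 0.54. Of the hexosamine pathway and O-GlcNAc cycling 4 of 8 were higher and none lower (2 and 1 with the mean of all probe sets), led by the salvage kinase Nagk, which read 7.56, 7.51 and 7.46 and 8.29, 8.26 and 8.25 (0.76 ± 0.064, adjusted p = 5.07e-07). Of 19 cholesterol genes 3 were higher and 2 lower. Insig1, the sterol-regulated brake on SREBP processing, fell by 1.07, the efflux transporter Abcg1 rose by 0.85, and Sqle (-0.13 ± 0.079) and Mvd (0.21 ± 0.11) were not called. Of 15 genes of fatty acid synthesis 3 were higher and 2 lower, with a median of 0.05, and without the 12 h array numbered 2 there was 1 higher. The higher ones were Acsl3, an acyl-CoA synthetase (0.42 ± 0.062), the elongase Elovl1 (0.27 ± 0.072) and Acss2, which makes acetyl-CoA from acetate (0.48 ± 0.14). Fatty-acid synthase, Fasn, fell by 0.63 and the elongase Elovl6 by 0.81, while Acaca (-0.31 ± 0.11, adjusted p = 0.0101 with the replicate block), whose protein is a substrate of AMPK, was not called.

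Lysosomal and stress genes were called higher at shares from 9.09% to 20.6% of each list, against 14.8% of all genes. Of 34 tested genes of lysosome and autophagy 7 were higher and none lower, with a median of 0.08, and with the replicate block or quantile normalization 11 were higher and 1 lower. Mcoln1, the lysosomal calcium channel, read 8.05, 7.89 and 7.75 in the controls and 8.72, 8.71 and 8.58 at 12 h (0.78 ± 0.11, adjusted p = 4.58e-05). The transcription factor Mitf rose by 0.78, Atp6v1h by 0.40 and Lamp2 by 0.32. TFEB-family factors bind the E-box CACGTG, and the 100 bases below, upstream of the start of Mcoln1 on the same build, hold 2 copies of it, in capitals.
Mcoln1, chr8:3500414-3500513, plus strand: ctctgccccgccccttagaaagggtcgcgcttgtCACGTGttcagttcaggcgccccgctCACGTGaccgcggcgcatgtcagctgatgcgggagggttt
The 300-base window held that E-box in 11 of 28 tested lysosomal genes with a promoter in the table, in 3 of 5 of those called higher and in 8.09% of all genes, or 11.3% of those tested. Of 26 chaperones 3 were higher and none lower, the heat-shock proteins Hspa1b (0.41 ± 0.09) and Hspb1 (0.32 ± 0.075) and the ER-stress factor Xbp1 (0.41 ± 0.10), and the replicate block or quantile normalization gave 6 higher. Of 22 NRF2 targets 2 were higher and 3 lower (5 with the mean of all probe sets), with Srxn1 (0.57 ± 0.11) higher, Txnrd1 (-0.46 ± 0.071) lower and Hmox1 (-0.32 ± 0.13) not called. Of 30 proteasome subunits 1 was higher, Psmd4 (0.22 ± 0.074), and with quantile normalization 6 were.

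Clock genes and RNA-binding genes were called in both directions. Of 15 clock genes 2 were higher (13.3%, against 14.8% of all genes) and 3 lower (20%, against 8.88%), or 5 lower with the replicate block. The activator Arntl (BMAL1, 0.60 ± 0.10) and the repressor Cry1 (0.54 ± 0.10) rose, and Nr1d2 (-0.65 ± 0.10), Tef (-0.55 ± 0.071) and Ciart (-0.39 ± 0.10) fell. The E-box was found in the promoter window of 5 of 13 tested clock genes. Of 26 SR proteins, CLK kinases and RNA-binding genes 9 were lower and 2 higher, with a median of -0.16. Hnrnpdl read 12.44, 12.45 and 12.38 and 11.75, 11.75 and 11.94 (-0.61 ± 0.08), Hnrnph1 fell by 0.57, Hnrnpa1 by 0.50 and the cold-inducible Cirbp by 0.76, whereas Hnrnpa2b1 (-0.16 ± 0.077) was not called. Outside the list, the branch-point binding splicing factor Sf1 read 10.23, 10.35 and 10.21 in the controls and 9.15, 9.43 and 9.15 at 12 h (-1.02 ± 0.093, adjusted p = 1.02e-06). Among the largest falls, the RNA helicase Ddx6 fell by 1.40, against -0.89, not called, for the mean of its 3 probe sets, and Rsbn1l and Zfp326 fell by 1.57 and 1.28. The microRNA host transcripts Mir100hg and Mir17hg fell by 1.34 and 1.28. These readings are of the host transcripts and not of the microRNAs. The octamer ATTTGCAT, searched in histone promoters, was found in 1 of 10 tested histone genes, none of them called lower, and in 1.97% of all genes, or 1.61% of those tested.

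Some of the calls above were lost when 1 array was left out. The difference could stay about as large, as for Prkaa2 without the control numbered 3 (0.68). It could also shrink, as for Prkaa2 without the 12 h array numbered 1 (0.25). The calls of Adk and Lats1 were lost without any one of the 6 arrays. Their differences then ran from -0.19 to -0.18 for Adk and from 0.19 to 0.24 for Lats1. Without the 12 h array numbered 1, the genes no longer called were Acss2 (0.42), Ehd2 (0.38), Ccnd1 (-0.30), Ciart (-0.34), Csf1r (-0.22), Gbp3 (0.54), Igtp (0.32), Irgm1 (0.25), Mdm2 (0.27), Ndufs7 (0.20), Prkaa2 (0.25), Psmb9 (0.39), Psmd4 (0.17), Rps15a (-0.44), Sik2 (0.44), Slc38a7 (0.25) and Snrk (0.41). Without the 12 h array numbered 2 they were Acss2 (0.35), Ehd2 (0.29), Elovl1 (0.22), Pacsin2 (0.20), Csf1r (-0.22), Gbp3 (0.32), Igtp (0.37), Irgm1 (0.29), Ndufs7 (0.21), Rps15a (-0.35) and Snrk (0.40), and without that numbered 3 Hbegf (-0.91), Nuak1 (-0.34) and Psmd4 (0.21). Without the control numbered 1, Csf1r (-0.25), Nuak1 (-0.53), Prkaa2 (0.59), Psmd4 (0.23) and Rps15a (-0.32) were not called, and without the control numbered 2 Pacsin2 (0.22), Csf1r (-0.29), Gbp3 (0.50), Igtp (0.40), Ndufa2 (-0.23), Nuak1 (-0.42), Prkaa2 (0.57), Psmd4 (0.19) and Rps15a (-0.42) were not. Without the control numbered 3, the calls of Acss2 (0.39), Ehd2 (0.21), Pacsin2 (0.21), Bad (0.28), Csf1r (-0.22), Gbp3 (0.43), Hbegf (-1.15), Irgm1 (0.24), Ndufs7 (0.19), Nuak1 (-0.55), Prkaa2 (0.68), Sik2 (0.40), Slc38a7 (0.23) and Snrk (0.37) were lost. The direction of none of these genes turned in the 6 fits. Other calls rested on the choice of probe set. With the mean of all probe sets, Ehd2 (0.05), Bcl2l1 (-0.13), Bub1 (0.10), Fosl2 (-0.26), Gart (0.093), Lamp2 (0.0087), Mcl1 (-0.20), Prps1 (-0.24), Psmd4 (0.13) and Rbl1 (0.22) were not called. Without probe sets of the kind that can cross-hybridise, the difference was 0.10 for Rfxank, 0.13 for Elovl1 and 0.063 for Srxn1, none of them called, and 0.43 for Tgfbi and 0.54 for Tlr3, both still called.

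The 12 h arrays were then set against their neighbours in time. Between 8 h and 12 h 156 genes were called (1.21%), 63 higher at 12 h (0.487%) and 93 lower (0.718%). This count depended on the fit, and it was 652 with the replicate block, 9 without the 8 h array numbered 1, 25 without the other 8 h array, and 48 and 98 without the 12 h arrays numbered 1 and 2. With 2 arrays at 8 h it is the least certain of the comparisons. The largest rises were Nxpe4 (0.95), Hsd3b7 (0.94), Ifit1 (0.83), Dsc2 (0.78) and the transglutaminase Tgm2 (0.78). The largest falls were Rbm14 (-1.30), Fst (-1.18), the cytokine-signal inhibitor Socs2 (-1.17), Rgs16 (-1.01) and Rbm4 (-0.92). At 12 h against 0 h Rbm4 differed by -0.29 and was not called (limma adjusted p = 0.00357 with the replicate block). Between 12 h and 24 h 2571 genes were called (19.9%), 1626 higher at 24 h (12.6%) and 945 lower (7.3%). The largest rises were all of the interferon system: Ifit1 (4.15), Rtp4 (4.06), the deISGylase Usp18 (3.42), Rsad2 (3.35) and Gbp3 (3.22). The largest falls were the BMP antagonist Grem1 (-1.83), Dynap (-1.58), Rin1 (-1.46), Flrt2 (-1.41) and Cavin2 (-1.37). The lists of ribosome biogenesis (27 of 32 lower at 24 h than at 12 h) and of TGF-β, BMP and activin genes (8 of 17 lower, 2 higher) moved on in the direction they had at 12 h.

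A few genes stood apart at 12 h. Called against 0 h, 8 h and 24 h alike, 12 genes were highest and 13 lowest at 12 h. Because the 12 h arrays enter all 3 contrasts, these genes were chosen by that pattern, and their values are a description. Tubb3, a β-tubulin best known from neurons, read 8.05, 8.32 and 8.12 at 12 h, against a mean of 7.47 at 0 h, 7.58 at 8 h and 7.38 at 24 h. Rfxank, a subunit of the RFX complex on MHC class II promoters, read 7.54, 7.49 and 7.43, against 6.46, 6.92 and 6.75. Also highest at 12 h were Uros, an enzyme of haem synthesis, Ngef, Serpinb9b and Ptprm, with differences from 0 h of 0.90, 0.82, 1.12 and 0.32. Timp3, an inhibitor of matrix metalloproteinases, and Krt19 crossed from above the controls at 12 h (0.35 and 0.32) to below them at 24 h (-0.89 and -0.28). On the low side, Sf1 was -0.42 from the controls at 8 h, -1.02 at 12 h and -0.49 at 24 h. Maff followed the same course (-0.25, -0.68 and 0.12), as did Spring1, a regulator of SREBP processing (-0.35, -0.86 and -0.45), and Errfi1 (-0.10, -0.57 and -0.21). Chst15 (-0.42), Zfp207 (-0.45), Abhd13 (-0.41) and Rab22a (-0.32) were also lowest at 12 h, but for Zfp207 and Rab22a the mean of all probe sets lay at 0.14 and 0.079, and for Abhd13 a value without cross-hybridising probe sets was 0.16.

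**Figure D5:**
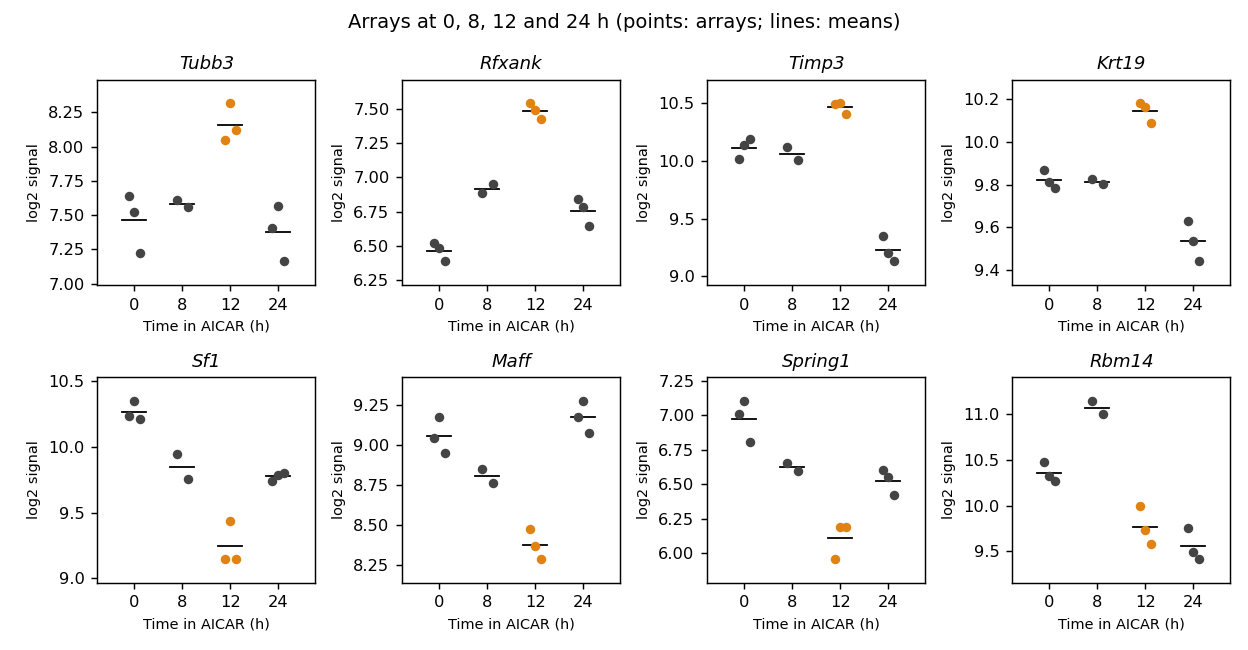
Log2 signal (y axis) of 8 genes in each array at 0, 8, 12 and 24 h of AICAR (x axis), with points for arrays, orange at 12 h, and lines for group means. Tubb3, Rfxank, Timp3 and Krt19 are highest at 12 h, Sf1, Maff and Spring1 are lowest, and Rbm14 drops from above the controls at 8 h to below them at 12 h.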

How the data were processed

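RNA from the 6 samples of the comparison, and from the 14 others of the time course, was hybridised to Affymetrix MG-430 PM array strips as biotin-labelled cRNA, per the labels' protocols. The authors deposited 1 log-scale value per probe set and array. The summarisation, background correction and normalization behind these deposited log2 values were among the steps not given in the sources used here. The base was taken as 2 because the highest value lies above the natural logarithm of a 16-bit scanner's maximum and below its log2, so fold changes rest on that reading.

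Probe sets were named through the platform annotation and symbols were updated through the gene identifier for 28689 of 28898 probe sets with a single symbol. Another 551 had several symbols and 15692, control probe sets included, were not listed and are unnamed here. A gene was read from its probe set of highest mean signal across all 20 arrays. Genes were tested where the highest group mean exceeded 4.81, the 40th percentile of all values, which left out 4153 genes. All 20 arrays entered a single limma 3.58.1 fit in R 4.3.3 (lmFit and eBayes, 13 residual degrees of freedom), so the groups share an estimate of spread, and p-values were adjusted by Benjamini-Hochberg over 12944 genes at a threshold of 0.05. The number of arrays limits the precision. Promoters came from RefSeq tables on GRCm38.p6, and figures were drawn with matplotlib 3.10.9.

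Deviations from the group means correlated between arrays of the same number at 0.137, 0.467 and 0.527, which meets the rule for pairing by number, although the labels give no basis beyond the number. The reported calls come from the fit without the replicate block, and the block is an alternative. The 12 h array numbered 1 correlated more with control 2 (0.274) than with control 1.

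The comparison and the 45 gene lists were chosen with earlier results of these data known. The lists came from general knowledge, held 1069 distinct genes of which 905 were tested, and were described by counts and medians with no test of their own. The results of 1 list are not reported here. Named were the 15 largest rises and falls among called genes whose arrays did not overlap (Riken and Gm loci skipped), up to 6 called and 3 other members of each list, up to 8 genes in each direction that stood apart at 12 h, the 5 largest rises and falls against 8 h and 24 h, and Prkaa1, Prkaa2, Lats1, Lats2, Txnip, Cdkn1a and Adk. Atic, also on that list, has no single-symbol probe set here. Alternatives changed the scaling, the filter, the choice of probe set, the variance model, array weights, the replicate block, the arrays left out and the threshold. Leaving out both arrays numbered 3 was added after the data were seen. On simulated data the same code was tested for the changes it recovers.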

Additional observations from a re-analysis of the deposited data

Results flagged for a closer look

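For 5 of the named genes the difference from the untreated controls at 12 h differed from that at a neighbouring time, by the limma contrast between both times, with called differences from 0 h in opposite directions. Rbm14, an RNA-binding coactivator, changed by -1.30 between 8 h and 12 h (limma adjusted p = 7.58e-05), from above the controls to below them. Among 12944 genes, 2 were called in opposite directions at 8 h and 12 h, Rbm14 and, named after its values were seen, Rbm12. Between 12 h and 24 h Nr1d2, the clock repressor REV-ERBβ, changed by 1.20 (limma adjusted p = 7.7e-08), from below the controls to above them. Timp3 changed by -1.24, Gart, an enzyme of purine synthesis, by -0.71 and Krt19 by -0.61, each from above to below. Of all genes tested, 25 showed this pattern between 12 h and 24 h. These comparisons share the 12 h and the control arrays. For Timp3, Gart and Krt19 the limma adjusted p was 6.44e-09, 5.46e-07 and 7.6e-06. With the mean of all its probe sets Gart was not called at 12 h.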

How the results depend on the processing

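Called genes at 12 h against 0 h numbered 4645 with array weights and 1914 at an adjusted p under 0.01, and 2129 to 3123 when each array was left out in turn; under every other alternative the count was within 1.5 times of 3068. Higher genes numbered 1205 at the stricter threshold and 1237 to 2174 with an array left out. Lower genes numbered 1831 with each probe set on its own, 1939 with array weights, 1733 with the arrays' interquartile ranges entered as covariate and 709 at the stricter threshold. Scaling moved the median of all genes by under 0.02. With only the 6 arrays of both groups in the fit, 2268 genes were called, 1384 higher and 884 lower. Pdk1 (0.68) and Slc36a1 (0.46) were among the named genes not called there. The replicate block gave 3945 calls for 12 h against 0 h, 652 for 12 h against 8 h and 3395 for 24 h against 12 h.

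The count for 12 h against 8 h was the least stable: 577 with quantile normalization, 36 with median centring, 243 with the stricter filter, 408 with array weights, 758 with the interquartile ranges, 23 at the stricter threshold and 9 to 141 with an array left out. With the 5 arrays of those 2 groups alone limma called 0 genes, with 1148 at an unadjusted p under 0.05. For 24 h against 12 h the count was 1349 with those groups alone, 1470 at the stricter threshold and 1776 to 2409 with an array left out. The cause was not tested.

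Of 258 genes with a difference given, 176 kept direction and call under each alternative. The mean of all probe sets turned the direction of Zfp207 (0.14), Rab22a (0.079), Spred1 (0.051), Stk11 (0.022) and Hnrnpa2b1 (0.011). Leaving out probe sets marked as cross-hybridising turned Abhd13 (0.16) and Ccdc28b (-0.098). Spred1 also turned without both arrays numbered 3 (0.011) and without the 12 h array numbered 3, and its values ran from -0.12 to 0.050 with an array left out. Dusp7 ran from -0.013, without the 12 h array numbered 1, to 0.32. Signals near the background level, as for Ifit1, Gbp3 and Irgm2 in the controls, may understate differences.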
